A study of Mus musculus with 6 samples.

Results

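DNA replication is the copying of the genome during S phase, and 47 genes that serve it were followed in the mouse aorta. They were chosen by name, as genes of replication licensing, of the replication fork and of nucleotide supply, with earlier results of these data known. Every one of the 47 names matched 1 of the 41064 rows of the deposited gene table. The series holds 6 aorta libraries, all from mice given angiotensin II (Ang II), the peptide hormone that raises blood pressure and drives remodelling of the vessel wall. In 3 libraries the genotype label is WT (wild type) and in 3 it is JOSD2 KO, a knockout of Josd2, which encodes a deubiquitinase of the Josephin family. Both groups received Ang II, so the comparison is of genotype under Ang II. The labels give a tissue, a genotype and a treatment for each library. The strain, the age and the sex of the mice, the dose and duration of Ang II, the way the knockout was made, and whether a library stands for 1 animal or for pooled animals are not stated in those labels. A p-value here sets the difference between the groups against the scatter among these libraries, estimated for each gene with help from the other genes. Part or all of that scatter may be technical, so the p-values and SDs may not measure how far animals differ.

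Replication starts when the origin recognition complex, CDC6 and CDT1 load the ring of MCM proteins onto DNA in G1. CDC45 and the GINS complex then turn that ring into the moving helicase, and the polymerases, the sliding clamp PCNA and its loader copy both strands behind it, fed by enzymes that make deoxynucleotides. Many of these genes are switched on together at the end of G1 by E2F transcription factors, which the retinoblastoma family of pocket proteins holds back in resting cells, and most cells of an adult artery are at rest.

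The promoters of the members are shown first because this shared control is the best known property of the family. RefSeq promoter windows on GRCm38.p6, from 250 bases before to 50 bases after the annotated start, were found for 39 of the 47 members. They were searched on both strands for 4 E2F-type strings, TTTCGCGC, TTTGGCGC, TTTCCCGC and TTTGCCGC, and for CCAAT, the letters that the factor NF-Y recognises. Stretches of 6 windows are printed 5′ to 3′ on the strand of the gene, with the E2F-type strings and CCAAT in capitals, whichever strand they read on. Mcm5 and Uhrf1 are shown as members whose transcript fell, with E2F-type letters. Mcm6 and Pola1 are shown as members with such letters whose transcript did not pass the test. Rrm2 and Clspn are shown as the members with the largest falls among those that held in every left-out-library fit, and neither stretch holds E2F-type letters. Each stretch ends before the start its window was taken for and holds no annotated exon. Uhrf1 has more than 1 annotated start, and its stretch lies inside the gene, downstream of the first start and upstream of a second one. The window at the first start holds no E2F-type letters. The window of Clspn has E2F-type letters beyond the end of its stretch.
Mcm5, chr8:75109319-75109508, plus strand: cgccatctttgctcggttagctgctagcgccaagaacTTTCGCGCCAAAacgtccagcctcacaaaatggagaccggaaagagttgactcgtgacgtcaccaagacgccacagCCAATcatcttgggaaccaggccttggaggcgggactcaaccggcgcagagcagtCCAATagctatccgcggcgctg
Mcm6, chr1:128359706-128359895, minus strand: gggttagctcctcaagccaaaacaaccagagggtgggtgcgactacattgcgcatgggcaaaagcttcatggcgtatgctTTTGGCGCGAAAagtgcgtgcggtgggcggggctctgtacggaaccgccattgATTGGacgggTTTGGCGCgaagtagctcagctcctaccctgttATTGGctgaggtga
Uhrf1, chr17:56304123-56304312, plus strand: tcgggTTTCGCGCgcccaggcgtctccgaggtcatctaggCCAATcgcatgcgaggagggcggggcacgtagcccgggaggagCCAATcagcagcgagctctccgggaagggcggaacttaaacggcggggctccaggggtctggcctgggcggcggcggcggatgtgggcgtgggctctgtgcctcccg
Pola1, chrX:93632156-93632345, minus strand: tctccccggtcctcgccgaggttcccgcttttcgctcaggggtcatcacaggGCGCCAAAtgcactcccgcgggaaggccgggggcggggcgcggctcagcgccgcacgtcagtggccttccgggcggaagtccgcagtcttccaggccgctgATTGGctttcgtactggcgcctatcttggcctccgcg
Rrm2, chr12:24708064-24708240, plus strand: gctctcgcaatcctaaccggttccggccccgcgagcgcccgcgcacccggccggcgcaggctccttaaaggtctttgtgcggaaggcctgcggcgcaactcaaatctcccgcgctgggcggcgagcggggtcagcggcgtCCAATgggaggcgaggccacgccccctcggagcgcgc
Clspn, chr4:126556790-126556934, plus strand: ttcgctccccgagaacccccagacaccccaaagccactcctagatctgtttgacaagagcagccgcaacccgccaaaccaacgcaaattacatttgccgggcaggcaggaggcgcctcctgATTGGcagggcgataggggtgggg
The capitals in Mcm5 hold an E2F-type string on each strand, overlapping each other, and so does the first run of capitals in Mcm6, which has a further E2F-type string closer to the start. At least 1 E2F-type string was in the windows of 17 of 39 members (43.6%), against 532 of 13002 tested genes with a window (4.09%). Among members with a window, 4 of the 15 that fell held one (26.7%), and so did 13 of the 24 that did not pass the test (54.2%). CCAAT was in 61.5% of the members' windows and in 42.2% of those of all tested genes. A match describes letters only and does not show that a factor was bound.

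The libraries held between 63612353 and 75886761 deposited counts. Mitochondrial genes took 36.2% of the counts of each wild type library and 23.8% to 23.9% of those labelled knockout, so levels below are on edgeR's TMM scale in CPM (counts scaled to a fixed library total), which sets the libraries against each other by the bulk of the genes. The Josd2 transcript stood at 30.1 ± 0.837 CPM (SD, n = 3) in wild type and at 20.98 ± 0.947 CPM in the other group, 69.8% of wild type (log2 difference -0.52, edgeR adjusted p = 0.000244). In deposited FPKM it stood at 8.36 ± 0.224 against 7.76 ± 0.356, a smaller difference, and the groups did not overlap on either scale. Because most of the transcript was retained, the second group is called the libraries labelled knockout. The aortic label matched the smooth muscle genes, whose summed level was 19930 to 20110 CPM for wild type, against 19300 to 19410 CPM for those labelled knockout. Within that sum single genes moved in opposite directions, with 1 of 6 lower in edgeR's test, 3 higher and 2 not passing. Acta2 fell (log2 difference -0.30), while Myh11 (0.27), Cnn1 (0.28) and Smtn (0.24) rose. Markers of other cell types also differed between the groups. The summed macrophage markers stood at 328.7 to 333.2 against 194.7 to 199.6 CPM, with 5 of 6 lower, and the endothelial markers at 371.3 to 377.7 against 658.6 to 665.2 CPM, with 6 of 6 higher. Thymocyte markers were between 0.5278 and 1.777 CPM against 3.93 to 6.713 CPM, with 3 of the 4 tested higher. Rag2 was at 0 in every wild type library. Of the 6 T cell markers only Cd8a passed, as higher (log2 difference 2.38). Cd3e (0.07), Cd3d (0.27), Cd3g (-0.67), Cd4 (1.29) and Cd5 (-0.60) did not pass. Markers of lung, kidney and seminal vesicle were between 28.5 and 32.36 CPM against 0.9166 to 1.381 CPM. Libraries of the same group lay close together in mitochondrial share and in the smooth muscle, macrophage and endothelial sums. They were less close in the thymocyte sum. Whether they came from separate animals was not tested. The summed markers of B and plasma cells were at 171%, of neutrophils at 152% and of T cells at 131% of wild type. Those of adipocytes were at 125%, of fibroblasts at 101% and of erythroid cells at 69.5%. Fibroblast markers also moved both ways beneath their sum, with 4 of 6 lower and 2 higher. The part of these cells in the results on replication genes was not tested.

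On the TMM scale, and so relative to the bulk of the genes, the replication genes were mostly lower in the libraries labelled knockout. On that scale 18 of the 47 fell and none rose in edgeR's quasi-likelihood test at an adjusted p of 0.05, while 29 did not pass. The genes that fell most encode the checkpoint mediator claspin (Clspn), the small subunit of ribonucleotide reductase (Rrm2), the nuclease EXO1, the chromatin factor UHRF1 and the repressor E2F8. All 5 genes of deoxynucleotide supply fell, whereas 1 of 5 genes of the clamp and its loader and 2 of 7 of the polymerases and primase did. Of the 20132 genes tested, 24.7% passed, 11.5% as falls and 13.2% as rises, against 38.3% and 0% of the members. Because the members were chosen with earlier results known, this contrast is a description and not a test. With library totals in place of TMM scaling, 5 members fell and 5 rose, beside 3.81% and 46.8% of all genes tested. In bulk tissue, fewer cells in S phase and less RNA per cell cannot be told apart.

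The members' log2 differences ran from -2.26 (Clspn) to 0.39 (Pola2), with a median of -0.44, beside a median of -0.0031 over all genes tested. The value was below 0 for 44 of 47 members. In 26 members every library labelled knockout was below every wild type library, and in 1 member, Pola2, every one was above. The same held for 19.8% and 21.3% of all genes tested. A fall of at least 2-fold was measured for 8 members, Mcm10, Pole, Rrm2, Uhrf1, Chaf1b, E2f8, Clspn and Exo1. The remaining 10 that fell did so by less than 2-fold. A further 8 members had groups that did not overlap but did not pass the test, namely Mcm3, Mcm6, Cdc6, Cdt1, Cdc45, Prim1, Pold1 and Fen1. Summed over the 47 genes, the level was 439.4, 442.3 and 444.7 CPM in the wild type libraries and 349.7, 344.6 and 345.1 CPM in those labelled knockout, which is 78.4% of wild type. On the deposited FPKM values (fragments scaled by gene length and library total), the sums were 80.65, 83.65 and 82.27 against 86.07, 82.70 and 85.61, or 103% of wild type. The sum is therefore lower or not, depending on the scale.

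**Figure D1:**
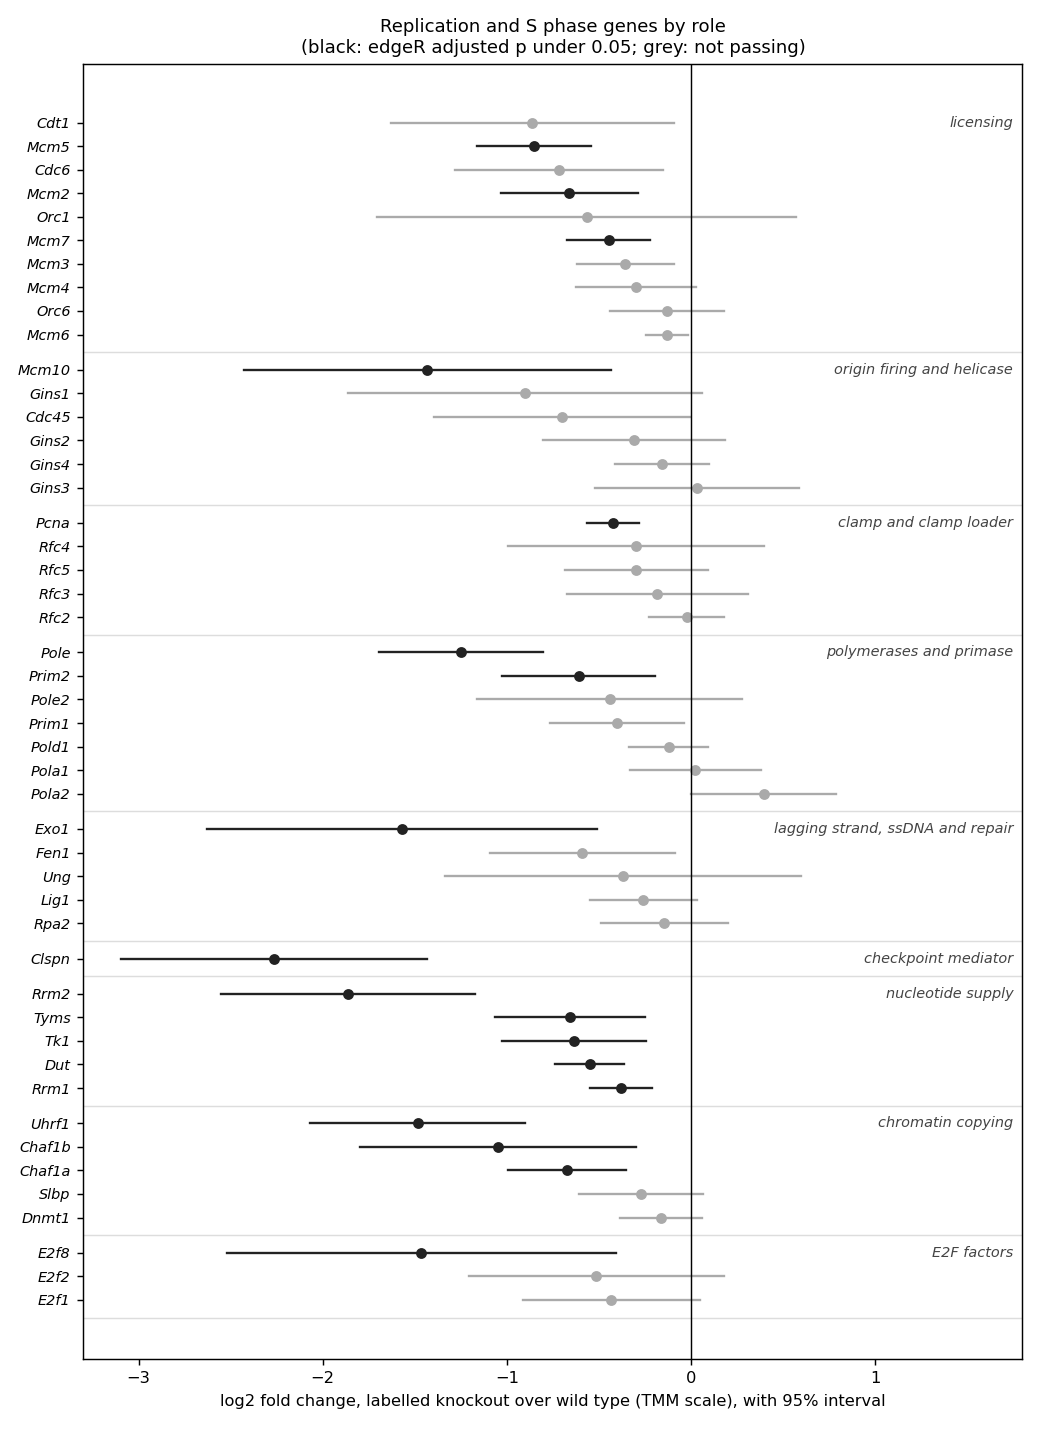
Log2 fold change of each of the 47 genes on the TMM scale (horizontal axis, labelled knockout over wild type, with 95% intervals), grouped by role, with the 18 that passed edgeR's test in black and the others in grey. Points lie left of 0 for 44 genes, and the farthest to the left is Clspn at -2.26.

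Licensing loads the MCM ring at origins. Of its 10 genes 3 fell, Mcm2, Mcm5 and Mcm7, all subunits of the ring, and the median log2 difference was -0.51. Mcm5 stood at 9.21, 8.18 and 10.0 CPM in wild type libraries 1 to 3 and at 5.16, 5.28 and 4.76 CPM in the libraries labelled knockout. The groups were far apart, with the highest labelled knockout library well under the lowest wild type one. Mcm5 was 1.8-fold lower (log2 difference -0.85, SE 0.14, edgeR adjusted p = 0.00105). Mcm7 read 18.0, 14.9 and 15.7 against 11.8, 11.8 and 12 CPM (log2 difference -0.45, edgeR adjusted p = 0.00775), again without overlap. Matching sequence bears on this value, since another annotated gene, Gm5487, matches 92.5% of an Mcm7 transcript at 97% identity or more, and the counting could have split reads between them. Mcm2 read 8.77, 7.35 and 7.64 against 3.99, 5.57 and 5.46 CPM (log2 difference -0.66, SE 0.17, edgeR adjusted p = 0.0151). Its adjusted p rose to 0.0602 when 1 library was left out, the first wild type library or the first labelled knockout one losing the call.

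The other ring subunits did not pass. Mcm6, the ring subunit with the highest FPKM, read 63.5, 67.3 and 70.0 CPM in wild type, against 62.4, 62.5 and 58.8 CPM in those labelled knockout, a log2 difference of -0.13 with an edgeR adjusted p of 0.0999. Every labelled knockout library was below every wild type one, but by a small margin. Mcm3 read 11.7, 11.5 and 11.3 against 9.83, 9.13 and 7.93 CPM (log2 difference -0.36, edgeR adjusted p = 0.0505), and Mcm4 10.2, 14.8 and 11.7 against 10.8, 9.05 and 9.90 CPM, where the groups overlapped. Cdc6, an ATPase that helps to load the ring, was at 2.19, 2.09 and 1.94 against 1.27, 1.25 and 1.27 CPM (log2 difference -0.72, edgeR adjusted p = 0.0656). Cdt1, its partner, was at 1.56, 2.46 and 1.66 against 0.721, 0.962 and 1.44 CPM. Both had separate groups without passing. Of the origin recognition subunits, Orc1 was low, between 0.419 and 1.27 CPM in all libraries. Orc6 had the least evidence of a difference in the licensing group, 6.96, 8.41 and 8.29 against 6.90, 6.76 and 7.95 CPM (log2 difference -0.13, edgeR adjusted p = 0.562).

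Origin firing turns the loaded ring into the active helicase. Only Mcm10, which bridges the helicase and polymerase alpha, passed among these 6 genes, whose median log2 difference was -0.50. Mcm10 stood at 1.27, 2.71 and 1.61 CPM in wild type, against 0.423, 0.516 and 1.13 CPM in those labelled knockout (log2 difference -1.43, SE 0.45, edgeR adjusted p = 0.0396). The groups did not overlap, but the last labelled knockout library came close to the first wild type one. The call was lost when the second or the third wild type library or the first or the second labelled knockout library was left out, with an adjusted p of up to 0.164. Cdc45, the helicase cofactor, was at 2.81, 2.85 and 2.81 against 2.06, 0.951 and 2.20 CPM (log2 difference -0.70, edgeR adjusted p = 0.137), and its second labelled knockout library lay well below the other two. The GINS subunits did not pass. Gins1 had a log2 difference of -0.90 (95% interval -1.86 to 0.06) and Gins2 one of -0.31, both with overlapping groups. Another gene, Gse1, covers 67.3% of the exon bases of Gins2. Gins3 was at 2.08, 2.90 and 1.88 against 2.48, 2.06 and 2.49 CPM, with overlapping groups and a 95% interval of the log2 difference from -0.52 to 0.59. Gins4 read 9.84, 11.2 and 10.7 against 9.35, 8.96 and 10.1 CPM (log2 difference -0.16, edgeR adjusted p = 0.369).

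The sliding clamp fell and its loader did not pass. Pcna, the ring that tethers polymerases to DNA, read 42.4, 45.1 and 43.9 CPM in wild type, against 33.1, 30.3 and 34.5 CPM in those labelled knockout. The groups were tight and separate, 43.8 ± 1.35 against 32.6 ± 2.14 CPM (SD, n = 3 each). Pcna was 1.34-fold lower (log2 difference -0.42, SE 0.06, edgeR adjusted p = 0.000617), and its pseudogene Pcna-ps2 matches 65.9% of a Pcna transcript. None of the 4 loader subunits among the members, Rfc2 to Rfc5, passed. The large subunit Rfc1, outside the members, did not pass either (log2 difference 0.041, edgeR adjusted p = 0.7255). Rfc2 read 16.1, 17.5 and 16.3 against 15.9, 17.8 and 15.4 CPM, with fully overlapping groups and a 95% interval of the log2 difference from -0.23 to 0.18. Rfc3, Rfc4 and Rfc5 had log2 differences between -0.30 and -0.18.

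**Figure D2:**
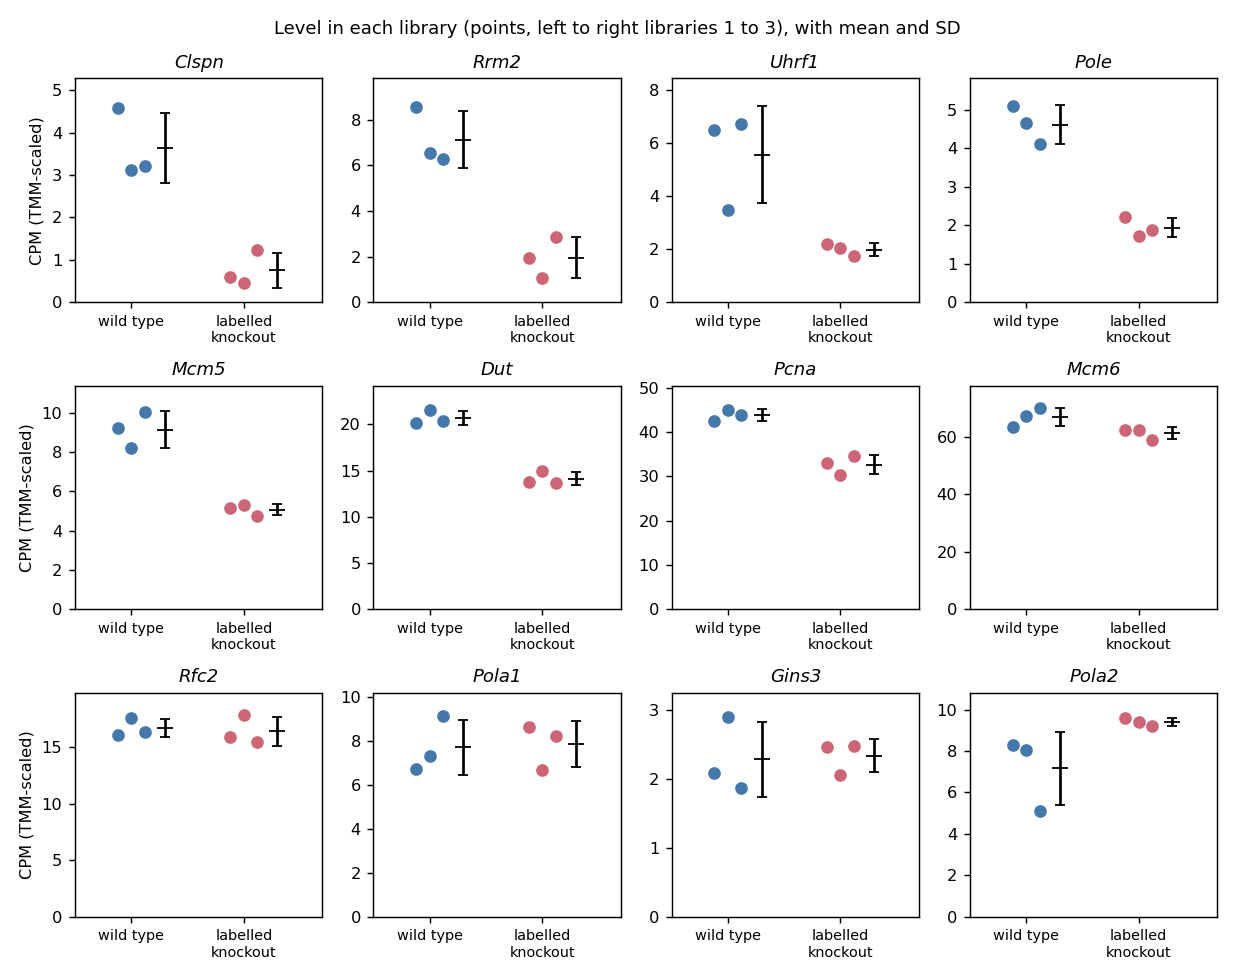
Level of selected members in each of the 6 libraries (vertical axes, CPM on the TMM scale, starting at 0), with the mean and SD of each group of 3 beside the points. Clspn, Rrm2, Pole and Mcm5 show groups that lie apart, Rfc2 and Pola1 show groups that overlap, and Pola2 has its lowest value in a wild type library.

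Among the polymerases, the catalytic subunit of the leading strand polymerase had the largest difference on the TMM scale. Pole read 5.09, 4.64 and 4.10 CPM in wild type, against 2.20, 1.73 and 1.89 CPM in those labelled knockout. The lowest wild type library was still well above the highest of the other group. Pole was 2.38-fold lower (log2 difference -1.25, SE 0.20, edgeR adjusted p = 0.000939). Its accessory subunit Pole2 had a log2 difference of -0.44 with an edgeR adjusted p of 0.377. Pold1, the catalytic subunit of the lagging strand polymerase, read 12.5, 13.2 and 12.2 against 11.7, 11.8 and 11.3 CPM, separate groups that did not pass (log2 difference -0.12, edgeR adjusted p = 0.419). Pold1 lies on the minus strand of chromosome 7, and its nearer edge is 61083 bases beyond the end of Josd2.

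Of the 4 genes of polymerase alpha and primase, which start each new strand, Prim2 fell. Prim2, the large primase subunit, read 10.1, 6.59 and 6.99 against 5.44, 5.52 and 4.54 CPM (log2 difference -0.61, SE 0.19, edgeR adjusted p = 0.0354). The first wild type library was the high one, and leaving out that library or any 1 of the labelled knockout libraries ended the call, with an adjusted p of up to 0.141. The small subunit Prim1 was at 5.46, 6.89 and 7.27 against 4.53, 5.37 and 4.94 CPM without passing. Pola1, the catalytic subunit, read 6.73, 7.32 and 9.14 against 8.64, 6.69 and 8.26 CPM, with overlapping groups and a 95% interval of the log2 difference from -0.33 to 0.38. Its partner Pola2 read 8.30, 8.05 and 5.12 against 9.60, 9.39 and 9.20 CPM. This was the 1 member with every labelled knockout library above every wild type one, and it did not pass on the TMM scale (log2 difference 0.39, edgeR adjusted p = 0.139).

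Of the 5 genes of lagging strand processing, single-stranded DNA binding and repair, Exo1 fell. This nuclease, which resects DNA ends and works in mismatch repair, read 1.02, 0.651 and 1.38 CPM in wild type, against 0.261, 0.367 and 0.396 CPM in those labelled knockout. The groups did not overlap, but the deposited counts were small, 56, 37 and 89 against 21, 32 and 33. The log2 difference was -1.57 (SE 0.48, edgeR adjusted p = 0.0350), and the call was lost in all left-out-library fits but the one without the second wild type library. Fen1, which removes the flaps of lagging strand fragments, read 4.01, 2.99 and 2.79 against 2.18, 1.97 and 2.35 CPM without passing (log2 difference -0.59, edgeR adjusted p = 0.0867). Another gene, Gm10143, covers 78.8% of its exon bases. Lig1, the ligase that seals those fragments, and Rpa2, a subunit of the single-strand binding complex, had log2 differences of -0.26 and -0.15. Ung, the uracil glycosylase, was at 1.07, 1.65 and 0.885 against 0.485, 1.33 and 0.973 CPM, with overlapping groups.

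Clspn, which links stalled forks to the checkpoint kinase CHK1, had the largest fall of the 47 on the TMM scale. It read 4.59, 3.11 and 3.21 CPM in wild type, against 0.585, 0.458 and 1.23 CPM in those labelled knockout. The deposited counts behind these levels were 253, 177 and 207 against 47, 40 and 102, with the third library the highest of its group. Clspn was 4.8-fold lower (log2 difference -2.26, SE 0.38, edgeR adjusted p = 0.00111). No other annotated gene matched or covered its exons under the search used.

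Nucleotide supply was the one group of several genes in which every member fell. Its summed level was 66.8 ± 2.96 CPM in wild type, against 44.0 ± 2.41 CPM in those labelled knockout (SD, n = 3 each), 65.9% of wild type on the TMM scale and 82.5% in FPKM. Rrm2, the regulated small subunit of ribonucleotide reductase, the enzyme that makes deoxynucleotides, read 8.54, 6.56 and 6.26 against 1.94, 1.05 and 2.87 CPM. The highest labelled knockout library was below the lowest wild type one by more than 2-fold. Rrm2 was 3.64-fold lower (log2 difference -1.86, SE 0.31, edgeR adjusted p = 0.00116), and a similar gene, Gm48455, matches 29.1% of one of its transcripts. The large subunit Rrm1 also fell, 23.5, 22.6 and 24.3 against 18.7, 17.1 and 18.3 CPM (log2 difference -0.38, SE 0.08, edgeR adjusted p = 0.00403).

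Dut, the dUTPase that keeps uracil out of DNA, read 20.2, 21.6 and 20.4 CPM against 13.8, 15 and 13.7 CPM. These tight groups lay apart, and Dut was 1.46-fold lower (log2 difference -0.55, SE 0.08, edgeR adjusted p = 0.000647). Tyms, thymidylate synthase, had the largest p of the group and read 8.34, 5.65 and 7.00 against 5.0, 3.86 and 4.44 CPM (log2 difference -0.66, SE 0.18, edgeR adjusted p = 0.0238). Tk1, the thymidine kinase of the salvage route, read 9.39, 7.70 and 8.48 against 5.52, 4.29 and 6.63 CPM (log2 difference -0.64, SE 0.18, edgeR adjusted p = 0.0225). Both had separate groups. Their calls were lost when the first or the third wild type library or the second labelled knockout library was left out, that of Tyms also without the third labelled knockout library and that of Tk1 also without the first.

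Of the 5 genes that copy chromatin behind the fork, 3 fell. Uhrf1, which reads hemimethylated DNA and brings in the maintenance methyltransferase, read 6.49, 3.46 and 6.72 CPM in wild type, against 2.19, 2.04 and 1.73 CPM in those labelled knockout. The second wild type library was the low one of its group and still above all 3 of the others. Uhrf1 was 2.80-fold lower (log2 difference -1.48, SE 0.26, edgeR adjusted p = 0.00173), and a similar gene, Gm5648, matches 68.0% of one of its transcripts. Dnmt1, the methyltransferase itself, read 22.1, 24.5 and 28.3 against 21.2, 24.3 and 21.4 CPM, with overlapping groups (log2 difference -0.16, edgeR adjusted p = 0.292). Both large subunits of chromatin assembly factor 1, which places new histones, fell. Chaf1a read 8.97, 8.37 and 9.89 against 5.07, 6.43 and 5.57 CPM (log2 difference -0.67, edgeR adjusted p = 0.00573), with Ubxn6 covering 52.5% of its exon bases. Chaf1b read 1.92, 2.44 and 2.86 against 1.26, 0.687 and 1.55 CPM (log2 difference -1.05, edgeR adjusted p = 0.0441), and this call was lost without the second or the third wild type library or the first or the second labelled knockout library, with an edgeR adjusted p of up to 0.138. Slbp, the stem-loop binding protein of histone messages, did not pass (log2 difference -0.27).

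Of the 3 E2F factors among the members, the repressor E2f8 fell and the activators did not pass. E2f8 read 0.997, 2.51 and 1.12 CPM in wild type, against 0.833, 0.470 and 0.372 CPM in those labelled knockout (log2 difference -1.46, SE 0.48, edgeR adjusted p = 0.0464). The groups were separate, with the second wild type library far above the other 2, and the call was lost without the second or the third wild type library or the second or the third labelled knockout library, with an adjusted p of up to 0.230. E2f1 read 4.33, 4.68 and 6.94 against 4.35, 3.27 and 4.22 CPM (log2 difference -0.43, edgeR adjusted p = 0.187). E2f2 read 2.32, 2.04 and 1.89 against 1.41, 2.0 and 0.961 CPM (log2 difference -0.52, edgeR adjusted p = 0.278). The groups of both activators overlapped.

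The scale decides how many members are called. With libraries scaled by their totals, mitochondrial counts included, the median log2 difference of all genes tested was 0.41 rather than -0.0031, and 46.8% of genes rose and 3.81% fell. On that scale 5 members fell, Clspn (-1.85), Rrm2 (-1.45), Uhrf1 (-1.08), Pole (-0.84) and Mcm5 (-0.44). Another 5 rose, Pola2 (0.80), Pola1 (0.43), Rfc2 (0.39), Pold1 (0.29) and Mcm6 (0.28), and the members' median was -0.03, beside 0.41 for all genes. With totals taken after leaving out mitochondrial genes and their 8 nuclear copies, an alternative added after the files had been seen, the same 18 members fell and none rose, with 10.3% of all genes falling. Mcm5, Pole, Rrm2, Uhrf1 and Clspn were called lower in every alternative that tested them. The filter at a mean FPKM of 1 left out Pole, Uhrf1 and Clspn, which were therefore not tested there. On the TMM scale, 10 of the 18 calls were kept in each of the 6 left-out-library fits, those of the 5 genes just named and of Mcm7, Pcna, Rrm1, Dut and Chaf1a.

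**Figure D3:**
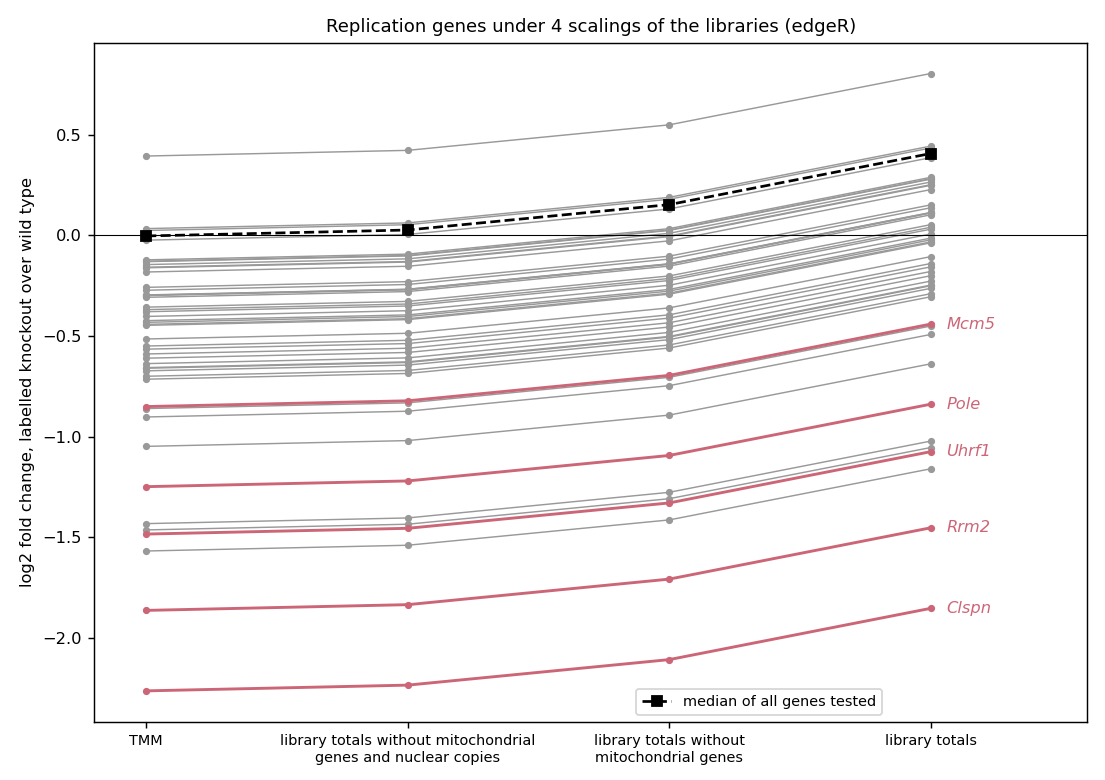
Log2 fold change of the members (vertical axis, labelled knockout over wild type) under 4 scalings of the libraries, with the median of all genes tested as a dashed line with squares. The median of all genes moves to 0.41 with library totals, and the members move up with it, so that 5 are called lower and 5 higher in place of 18 and 0.

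Subunits of 1 complex were not at equal transcript levels. Their ratios do not depend on how libraries are scaled, but those in FPKM do depend on the gene lengths used. In deposited FPKM, which divides by gene length, Mcm6 averaged 10.5 in wild type and 12.8 in the libraries labelled knockout, and was 4.70 and 5.50 times the median of the other 5 ring subunits. Library by library this ratio was 4.81, 4.74 and 5.0 in wild type and 5.11, 5.52 and 5.98 in those labelled knockout, so every labelled knockout library was higher. Gins4 averaged 5.75 and 6.85 FPKM, 7.63 and 8.16 times the median of the other GINS subunits. No other annotated gene matched or covered the exons of Mcm6 or Gins4 under the search used. The ratio of Rrm2 to Rrm1 in FPKM was 1.44, 1.15 and 1.02 in wild type and 0.411, 0.241 and 0.623 in the libraries labelled knockout. The groups did not overlap, and the 2 subunits thus changed unequally. Which of the 2 stood higher rests on the lengths used. In CPM, not divided by length, Rrm1 averaged above Rrm2, 23.5 against 7.12 in wild type and 18.0 against 1.95 in those labelled knockout. These complexes were picked after their values had been seen, and no test was made of the ratios.

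**Figure D4:**
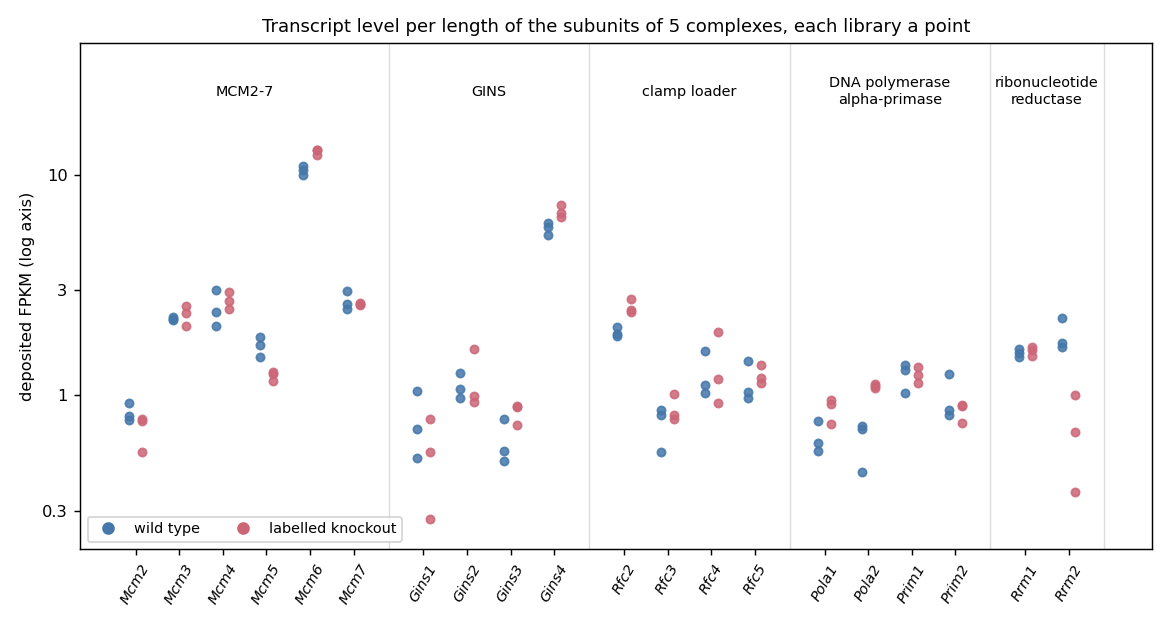
Deposited FPKM (log axis) of subunits that work in 1 complex, with a point for each library of each group. Mcm6 and Gins4 stand above their partners in all 6 libraries. On this length-scaled measure Rrm2 changes places with Rrm1, from above it in wild type to below it in the libraries labelled knockout. In CPM, not divided by length, Rrm1 averaged above Rrm2 in both groups.

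Calls were made among members of high and of low level. Of the 23 members with a mean FPKM of at least 1, 7 fell (30.4%) and the median log2 difference was -0.30. Of the 24 below that level 11 fell (45.8%), with a median of -0.67. In a fit of only the genes with a mean FPKM of at least 1, 9 of the 23 fell, beside 18.6% of all genes tested there. The share of all genes below that level was not computed, nor was the share at or above it in the main fit. The 30.4% and 45.8% therefore have no share of genes of like level beside them. Only Mcm6, Gins4, Pcna and Dut averaged 5 FPKM or more. In 9 members, Mcm10, Cdt1, Gins1, Orc1, Ung, Chaf1b, E2f8, Clspn and Exo1, the mean of the libraries labelled knockout was under 100 deposited counts, so that their fold changes are the least precise.

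Other genes of the same pathways were counted from lists drawn up by function, with earlier results of these data known. Their shares are therefore descriptions and not tests. Among 35 further replication genes, 5 fell (14.3%) and 1 rose on the TMM scale, with a median log2 difference of -0.07. That share is near the 11.5% of all genes tested that fell. Those that fell were few and included Rpa1, the large subunit of the single-strand binding complex (-0.63), Dbf4, the activator of the kinase that fires origins (-1.12), and the fork protection factor Tipin (-0.47). Its partner Timeless rose (0.57, edgeR adjusted p = 0.0416). Outside the members, 7 of 15 genes of nucleotide supply fell (46.7%) and 1 rose, Samhd1, which breaks deoxynucleotides down (0.19). The 7 included Umps (-0.77) and Ctps (-0.29) of pyrimidine synthesis. Of 10 other genes of chromatin copying 2 fell (20%), Pclaf, which binds PCNA (-2.24, edgeR adjusted p = 0.00019), and the remodeller Hells (-0.82).

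Regulators of S phase were counted in the same way. A list of 16 genes held E2F factors, pocket proteins and factors linked to them, such as Lin9, Mybl2 and the forkhead factor Foxm1. Of these, 2 fell (12.5%), Foxm1 (-1.59) and E2f7 (-1.37), 1 rose, Rbl2 (0.23), and the median was 0.01. Of 12 cyclins and kinases of the G1 to S transition 7 fell (58.3%), among them Ccna2, the S phase cyclin (-2.29), and Ccne1 (-1.29), with a list median of -0.21. Of 22 genes of the S phase checkpoint and recombination 3 fell, among them Rad54l (-0.85), which remodels DNA in recombination. This is 13.6% of that list, so the shares for the E2F network and for the checkpoint genes are near the 11.5% of all genes tested that fell. With library totals Rpa1, Pclaf, Foxm1 and Ccna2 were still called lower, whereas the higher calls grew to 16 of the further replication genes, 7 of the nucleotide genes, 11 of the E2F network, 7 of the cyclins and kinases and 7 of the checkpoint genes. On that scale 46.8% of all genes tested were called higher, so these counts are read against that share.

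The 20 genes of mitosis, a list also drawn up with earlier results known, were lower by more than most of the replication genes. All 20 fell on the TMM scale, by log2 differences between -2.41 and -1.38 with a median of -1.97, and all 20 fell with library totals as well. Their summed level was 161.8, 150.2 and 143.6 CPM in wild type, against 40.57, 37.69 and 38.74 CPM in those labelled knockout, 25.7% of wild type, beside 78.4% for the 47 replication genes. The 2 lists also differed in their promoters. An E2F-type string was in 1 of 17 windows of the mitosis genes (5.88%), against 43.6% for the members. The letters TTTGAA, the core of the cell cycle homology region, were in 70.6% of them, against 17.9% for the members and 15.5% for all tested genes, and CCAAT in 88.2%.

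**Figure D5:**
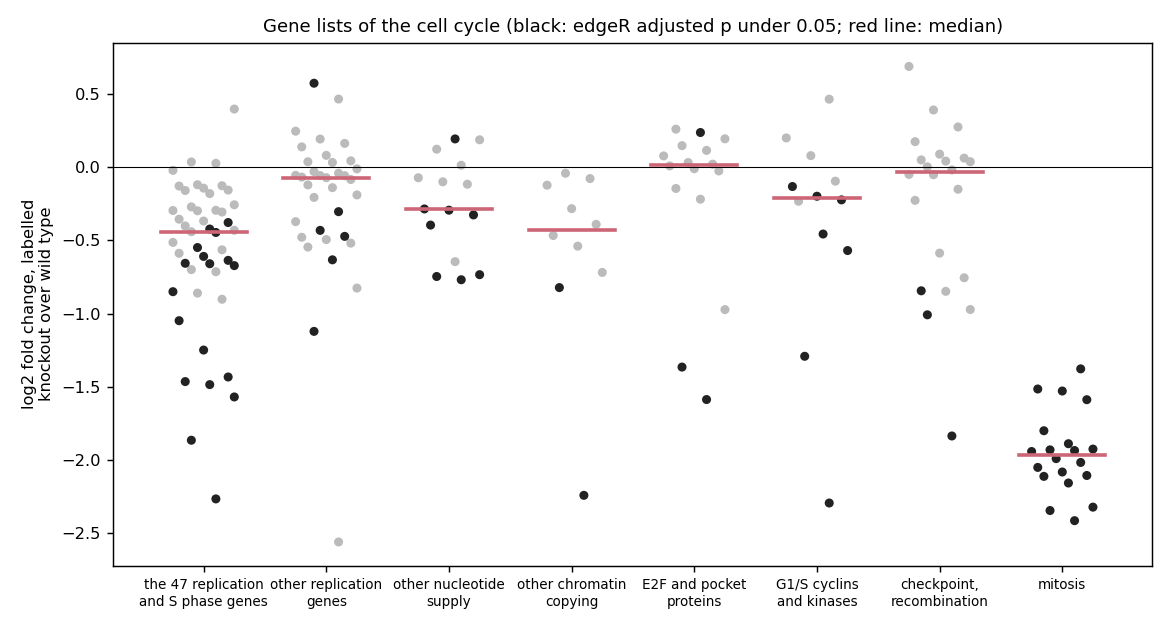
Log2 fold change on the TMM scale (vertical axis, labelled knockout over wild type) of the members and of 7 further lists, 1 point for each gene, with genes that passed edgeR's test in black and the list median as a red line. The mitosis list lies below -1.38 throughout with a median of -1.97, the members have a median of -0.44, and the medians of the other lists lie between -0.43 and 0.01.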

How the data were processed

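Polyadenylated RNA of 6 aorta samples was sequenced as paired-end libraries, per the labels' protocols, whose text also speaks of an adipose type of RNA. The deposited table gives each gene an estimated count and an FPKM value for each library, made by the authors. Of tools, HISAT2 2.0 and Bowtie 0.12.2 appear in the submitters' processing notes, as does the build mm8, without a stated role. How counts were made, from which annotation and whether by strand was not given in the sources used here, so reads of overlapping genes cannot be told apart. Coordinates of 37830 rows (92.1%), 39 of the members among them, equal those of GENCODE M21 on GRCm38. The counts are whole numbers, and low values peak at steps of 4, so a count is probably not 1 read pair.

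Genes that passed edgeR's expression filter (20132 of 41064, all 47 members) were fitted with TMM scaling and the quasi-likelihood test in edgeR 4.0.16 (R 4.3.3), wild type against labelled knockout, with Benjamini-Hochberg adjusted p under 0.05 as the call. Totals were 63612353 to 75886761 counts. In data simulated with 19620 genes at a uniform spread, 100% of 4-fold, 26.9% of 2-fold and 4.48% of 1.5-fold changes were recovered. Only 66, 67 and 67 genes were planted as changed there, whereas 24.7% of genes were called in the data. These shares therefore do not measure recovery in the real fit, where Pcna passed at 1.34-fold. A small change that misses the threshold is still not shown to be absent. Exon matches to other genes were found with BLAST 2.17.0 (97% identity over at least 100 bases). The alternatives were DESeq2 1.42.0, its size factors, library totals, other filters, counts divided by 4, limma 3.58.1 on log2(FPKM + 0.1) and log2(FPKM + 1), the replicate block and each library left out. In each role the genes with the smallest and the largest p were named, and further members were described after their values had been seen. The members and lists were chosen with earlier results of these data known. Some single genes of the checkpoint and recombination list are not reported here.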

Additional observations from a re-analysis of the deposited data

How the results depend on the processing

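Library totals, in place of TMM scaling, moved most values. They gave 5 members lower and 5 higher and 10193 genes called (92.5% of them higher, against 53.4% of the 4981 on the TMM scale). The log2 difference changed sign for Mcm3 (0.053), Mcm4 (0.11), Mcm6 (0.28), Gins2 (0.10), Gins4 (0.25), Rfc2 (0.39), Rfc3 (0.23), Rfc4 (0.11), Rfc5 (0.11), Prim1 (0.0066), Pold1 (0.29), Lig1 (0.15), Rrm1 (0.0304), Orc6 (0.28), Rpa2 (0.26), Ung (0.04), Dnmt1 (0.25) and Slbp (0.14). Calls lower and higher became 1 and 16 for the further replication genes, 0 and 7 for nucleotide supply outside the members, 1 and 2 for chromatin copying, 1 and 11 for the E2F network, 1 and 7 for the cyclins and kinases and 1 and 7 for checkpoint genes. With mitochondrial genes left out of the totals, 10 members were lower and 1, Pola2, higher, with sign changes in Mcm6 (0.0264), Rfc2 (0.13), Pold1 (0.0333), Orc6 (0.0244) and Rpa2 (0.01). Of all genes tested there, 6.75% were lower, and 78.4% of the calls were higher. The lists then gave 3 lower and 2 higher further replication genes, 4 lower nucleotide genes, 4 higher genes of the E2F network, 3 lower and 1 higher cyclins and kinases, and 1 higher checkpoint gene. With the nuclear copies left out too (added after the files had been seen), Rfc2 turned to 0.0045 and 2 genes of the E2F network were higher. The deposited FPKM values, scaled by library totals, gave similar counts. Of all genes, 4.3% were lower at log2(FPKM + 0.1) and 4.31% at log2(FPKM + 1). With limma on log2(FPKM + 0.1), 5 members were lower, 5 higher and 10196 genes called, and signs changed for Mcm3 (0.0465), Mcm4 (0.12), Mcm6 (0.28), Gins2 (0.0607), Gins4 (0.25), Rfc2 (0.37), Rfc3 (0.22), Rfc4 (0.0741), Rfc5 (0.12), Prim1 (0.0109), Pold1 (0.28), Pole2 (0.01), Lig1 (0.14), Rrm1 (0.0272), Orc6 (0.27), Rpa2 (0.25), Dnmt1 (0.24) and Slbp (0.14). With log2(FPKM + 1) the counts were 5, 5 and 10314, and the signs changed for Mcm3 (0.0348), Mcm4 (0.0867), Mcm6 (0.26), Gins2 (0.0425), Gins4 (0.22), Rfc2 (0.26), Rfc3 (0.11), Rfc4 (0.0533), Rfc5 (0.0659), Prim1 (0.0049), Pold1 (0.20), Lig1 (0.0959), Rrm1 (0.0178), Orc6 (0.20), Rpa2 (0.17), Ung (0.0036), Dnmt1 (0.18) and Slbp (0.0895). A filter at a mean FPKM of 1, which leaves 23 members, gave 9 lower, and no filter gave 11, with Rfc2 at 0.0058 (fewer and more genes tested). Of all genes tested in these fits, 18.6% and 4.78% were lower. DESeq2 gave 24 lower members, its size factors in edgeR 19, and counts divided by 4 gave 19 of 46 tested, all with none higher. The share of all genes called lower was 16.4%, 11.8% and 16.9% in these 3 fits, against 11.5% in the main one. Without 1 library the members lower ranged from 11 to 16 and the genes called from 3756 to 4458. The share of all genes called lower ranged from 8.43% to 9.55%. Near-zero differences changed sign there, with ranges of -0.0882 to 0.24 for Gins3, -0.0872 to 0.0204 for Rfc2 and -0.0623 to 0.17 for Pola1. With replicate numbers as a block, 16 members were lower, E2f8 and Exo1 losing their calls (the cause was not tested). The numbers were not taken to pair the samples, since same-numbered libraries correlated at 0.022, -0.026 and -0.016 in their deviations and only the pair numbered 1 correlated best with its own number. Of 774 values of single members over all alternatives, 601 kept direction and side of the threshold, 84 lost and 17 gained the call, and 72 changed sign. Low counts limit the 9 members under 100 counts most.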
